A study of Mus musculus with 4 samples.

Results

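The 10 genes followed here move calcium or carry pacemaker and repolarising current in the heart, namely *Cacna1c*, *Cacna2d2*, *Ryr2*, *Casq2*, *Atp2a2*, *Pln*, *Sln*, *Slc8a1*, *Hcn4* and *Kcnd2*. They were taken by symbol from the 32285 genes of the count matrices, and that rule uses no measured value. The genes themselves were chosen with earlier results of these data known. Single cells came from mouse ventricles at embryonic day 14.5, in 2 control libraries (Tie2Cre;*Ets1* fl/+) and 2 *Ets1* eKO libraries (Tie2Cre;*Ets1* fl/fl), each from 3 pooled ventricles of C57BL/6 background embryos of either sex. All 4 libraries carry Tie2Cre and at least 1 floxed *Ets1* allele, so the controls keep 1 allele that is not floxed. Tie2 drives Cre in endothelial cells and their descendants and not in cardiomyocytes, so the cardiomyocytes described here were not themselves the target of the deletion. Each library pools embryos, so 1 library is 1 replicate, and differences between embryos within a pool cannot be seen.

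An embryonic cardiomyocyte contracts when calcium enters through the L-type channel, whose pore is made by *Cacna1c* and whose surface abundance depends on accessory alpha2delta subunits such as *Cacna2d2*. The incoming calcium opens the ryanodine receptor *Ryr2* in the sarcoplasmic reticulum, where calsequestrin (*Casq2*) holds the store. Relaxation needs the calcium pump *Atp2a2*, which phospholamban (*Pln*) and sarcolipin (*Sln*) restrain, and the sodium-calcium exchanger *Slc8a1*, which carries calcium out of the cell. *Hcn4* makes the pacemaker current of conduction tissue, and *Kcnd2* makes a potassium channel of the transient outward current that shortens the action potential. *Sln* is known as a gene of atrial muscle, and slow conduction in the atrioventricular canal delays the ventricular beat.

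Cells were sorted in silico by summed markers into compact (*Hey2* and *Tnnt1*), trabecular (*Nppa* and *Bmp10*), cycling (10 genes of the cell cycle such as *Top2a*) and *Tbx3*/*Rspo3* gates, the last drawn on *Tbx3*, *Rspo3*, *Tbx2* and *Bmp2* as genes of the atrioventricular canal, and none of the 10 genes took part in this. The libraries held 76931208 to 124140739 unique molecular identifiers (UMIs, counted molecules) in 7949 to 14951 barcodes, and any pair of libraries shared 18 to 37 barcodes. Over the libraries the gates held 439 to 923 compact, 224 to 607 trabecular, 752 to 2129 cycling and 115 to 160 *Tbx3*/*Rspo3* cells, and *Ets1* eKO replicate 2 was the shallowest library, with a median of 7222 UMIs per compact cell against 11310.5 to 12191 in the others. In endothelial cells *Ets1* was at 311 and 279 counts per 1000000 UMIs (CPM) in control cells and at 137 and 103 CPM in cells of the eKO libraries, as the labels have it, and in the 4 cardiomyocyte gates it lay between 2.67 and 11.4 CPM. Cardiomyocyte markers made up 30371 to 41198 CPM of every cardiomyocyte gate, against 10.4 to 22.9 CPM of endothelial, 11.1 to 21.4 CPM of fibroblast and 1.28 to 7.12 CPM of immune markers. Epicardial markers reached 106, erythroid markers 205 and smooth muscle markers, some of which embryonic cardiomyocytes also express, 816 to 2631 CPM.
For the *Tbx3*/*Rspo3* gate, markers that had not been used to draw it did not all go with the atrioventricular canal. *Irx3*, which the study also used for these cells, was at 14.4, 19.2, 17.4 and 28.5 CPM there (in the order control replicates 1 and 2, *Ets1* eKO replicates 1 and 2, used throughout), below its 60.5, 51.9, 81.5 and 67.6 CPM in the trabecular gate. The list of atrial genes was at 13411 to 17686 CPM in the gate against 4541 to 5103 CPM in the compact gate, and the ventricular list at 4612 to 9675 against 20916 to 24589 CPM. The gate is therefore called by 2 of the genes of its rule and by no cell type.

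The 10 genes differ widely in size, which matters for how their transcripts are counted. *Cacna1c* (chromosome 6, 118587240 to 119196418, minus strand, GRCm38) spans 609 kb and *Ryr2* (chromosome 13, 11553102 to 12106945, minus) 554 kb. *Kcnd2* (chromosome 6, 21215503 to 21729805, plus) spans 514 kb and *Slc8a1* (chromosome 17, 81373105 to 81738377, minus) 365 kb. In the middle lie *Cacna2d2* (chromosome 9, 107399612 to 107529343, plus) with 130 kb, *Casq2* (chromosome 3, 102086415 to 102146514, plus) with 60.1 kb, *Atp2a2* (chromosome 5, 122453513 to 122502225, minus) with 48.7 kb and *Hcn4* (chromosome 9, 58823412 to 58863175, plus) with 39.8 kb. The genes of the small inhibitors are short, with 8.32 kb for *Pln* (chromosome 10, 53337667 to 53345987, plus) and 4.40 kb for *Sln* (chromosome 9, 53850164 to 53854560, plus).

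Promoters from 250 bases before to 50 after the start site were found in RefSeq (GRCm38.p6) for 8 of the 10 genes, with 10 entries in all since *Cacna1c* has 3. *Sln* and *Atp2a2* had no entry. The promoters of the 4 genes that differed most between the gates and had an entry are shown, each on its plus strand: *Cacna2d2* at chr9:107399630-107399929, *Hcn4* at chr9:58822699-58822998, *Casq2* at chr3:102086165-102086464 and *Kcnd2* at chr6:21215096-21215395. Capitals mark a match to a searched motif.
*Cacna2d2*: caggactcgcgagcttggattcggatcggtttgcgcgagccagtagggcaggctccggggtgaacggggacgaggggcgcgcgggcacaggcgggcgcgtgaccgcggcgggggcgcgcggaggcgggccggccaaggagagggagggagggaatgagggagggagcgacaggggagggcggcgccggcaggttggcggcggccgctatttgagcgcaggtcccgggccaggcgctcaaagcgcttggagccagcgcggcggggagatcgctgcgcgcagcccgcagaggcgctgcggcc
*Hcn4*: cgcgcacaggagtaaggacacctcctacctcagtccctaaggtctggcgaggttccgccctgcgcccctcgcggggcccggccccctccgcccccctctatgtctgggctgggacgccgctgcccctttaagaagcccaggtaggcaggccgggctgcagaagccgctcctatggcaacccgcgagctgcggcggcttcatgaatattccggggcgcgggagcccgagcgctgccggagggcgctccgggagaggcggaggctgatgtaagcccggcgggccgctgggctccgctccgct
*Casq2*: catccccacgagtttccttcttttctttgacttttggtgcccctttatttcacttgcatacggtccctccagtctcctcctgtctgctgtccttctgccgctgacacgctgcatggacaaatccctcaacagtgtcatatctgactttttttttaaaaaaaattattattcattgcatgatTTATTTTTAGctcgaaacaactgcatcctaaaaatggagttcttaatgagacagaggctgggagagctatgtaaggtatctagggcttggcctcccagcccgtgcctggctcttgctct
*Kcnd2*: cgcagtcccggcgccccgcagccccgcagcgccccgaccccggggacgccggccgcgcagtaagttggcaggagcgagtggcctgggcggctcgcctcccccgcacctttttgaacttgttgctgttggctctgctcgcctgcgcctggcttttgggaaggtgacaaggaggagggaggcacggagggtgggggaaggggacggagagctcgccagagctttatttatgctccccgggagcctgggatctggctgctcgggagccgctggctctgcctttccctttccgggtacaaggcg
Both strands were searched for the T-box half-site GGTGTG, the GATA sequence AGATAA and the MEF2 site, all motifs of factors known from the heart. The *Casq2* promoter held the MEF2 match in capitals, 69 bases before the start site. The GATA letters stood 68 bases before the start of *Slc8a1* and, on the other strand, 183 bases before that of *Pln*, and no 2 matches overlapped. None of the 10 entries held GGTGTG, which says only that these letters are not in these windows. Of 32851 promoters of this length, 19.0% held GGTGTG, 11.2% AGATAA and 3.19% the MEF2 site, so the matches are a description and no site of binding.

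The parts of the calcium entry channel had different patterns over the gates, with opposite directions in the *Tbx3*/*Rspo3* gate against the compact gate. *Cacna1c* was at 2425 and 2437 CPM (controls) and 1786 and 1458 CPM (*Ets1* eKO) in the compact gate and at 2136, 2581, 1643 and 1238 CPM in the trabecular gate. The *Tbx3*/*Rspo3* gate held 1677, 2073, 1017 and 1319 CPM. Trabecular and compact cells differed in *Cacna1c* by less than the spread of the libraries (log2 -0.02 ± 0.05 (SE), adjusted p = 0.791), while the *Tbx3*/*Rspo3* gate was 1.56-fold lower than the compact gate (log2 -0.64 ± 0.08 (SE), adjusted p = 2.29e-06). These p-values come from edgeR's quasi-likelihood test on UMIs summed per library and gate, with the library as a block and Benjamini-Hochberg adjustment over all genes tested. The accessory subunit *Cacna2d2* was nearly absent from the compact gate, at 6.49, 8.05, 3.70 and 3.65 CPM, which rest on 65, 44, 30 and 25 UMIs. It was at 41.0, 39.4, 53.2 and 34.7 CPM in the trabecular and at 362, 359, 668 and 490 CPM in the *Tbx3*/*Rspo3* gate, and the 3 gates did not overlap in any library. The trabecular gate was 8.32-fold higher than the compact gate (log2 3.06 ± 0.15 (SE), adjusted p = 7.88e-15). The *Tbx3*/*Rspo3* gate was 72.8-fold higher than the compact gate (log2 6.19 ± 0.18 (SE), adjusted p = 1.7e-16), the widest range of the 10 genes. In endothelial cells *Cacna2d2* was at 1.41, 1.77, 3.11 and 2.25 CPM, near the compact level of *Ets1* eKO. The part of free RNA in the compact level, on which both folds rest, was not tested.

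**Figure D1:**
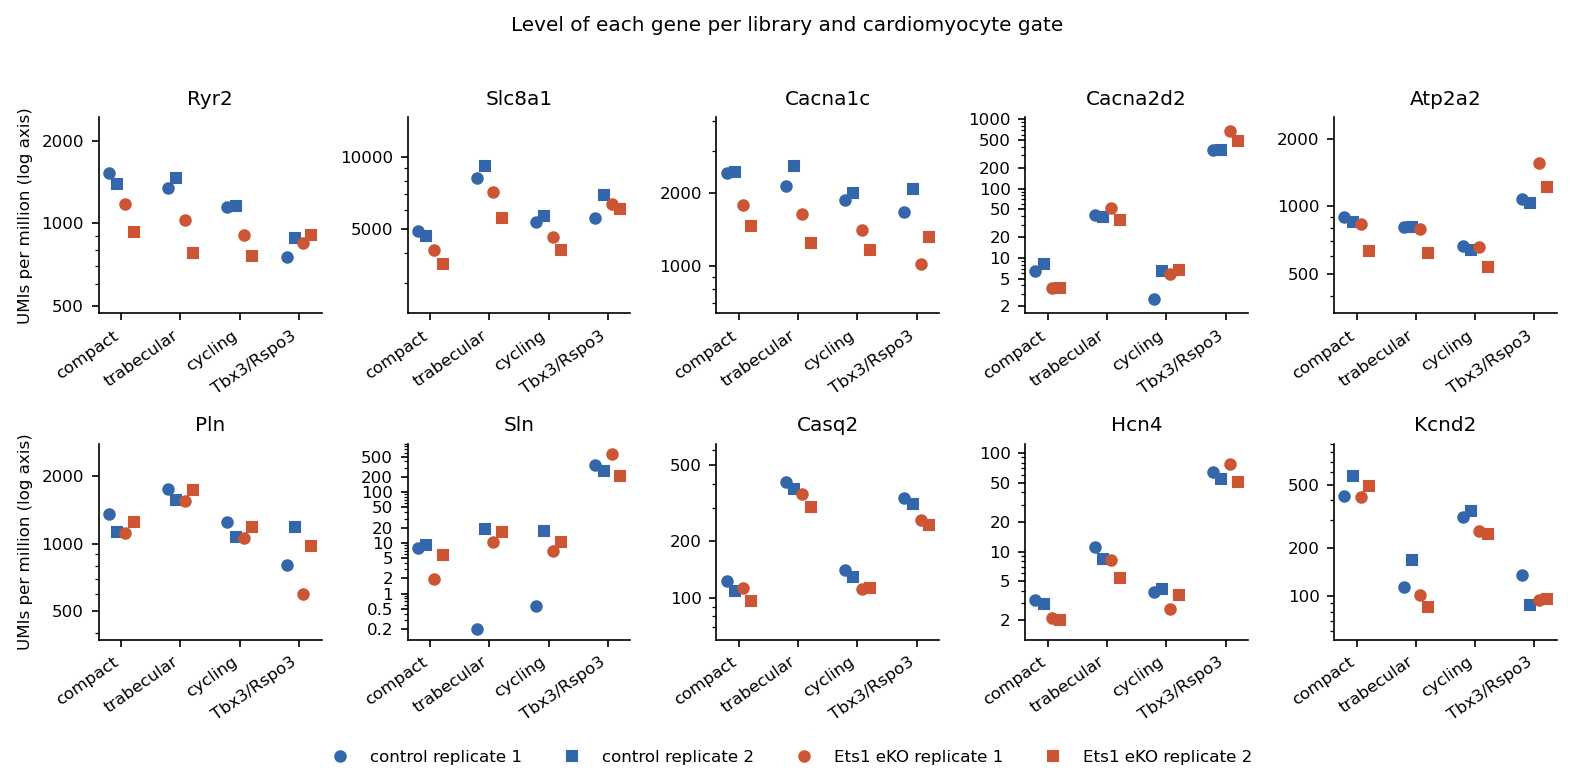
Level of each of the 10 genes (UMIs per 1000000 of the gate, log axes, 1 panel per gene) in the compact, trabecular, cycling and *Tbx3*/*Rspo3* gates, with 1 point per library and no averages. *Cacna2d2*, *Sln* and *Hcn4* stood highest in the *Tbx3*/*Rspo3* gate in every library, and *Kcnd2* stood highest in the compact gate, at 417 to 568 UMIs per 1000000.

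The release side was represented by the channel and its buffer. *Ryr2* was at 1524 and 1388 CPM (controls) and 1176 and 928 CPM (*Ets1* eKO) in the compact gate, at 1341, 1459, 1030 and 780 CPM in the trabecular gate and at 753, 883, 848 and 909 CPM in the *Tbx3*/*Rspo3* gate. The trabecular and compact gates did not differ in *Ryr2* beyond the spread (log2 -0.04 ± 0.05 (SE), adjusted p = 0.546), and the *Tbx3*/*Rspo3* gate was 1.69-fold lower than the compact gate (log2 -0.76 ± 0.10 (SE), adjusted p = 1.45e-06). *Casq2*, in contrast, was at 124, 109, 114 and 96.6 CPM in the compact gate and at 407, 374, 354 and 301 CPM in the trabecular gate. It reached 337, 313, 257 and 244 CPM among *Tbx3*/*Rspo3* cells. Every trabecular and *Tbx3*/*Rspo3* value of *Casq2* lay above every compact value, by 3.45-fold (log2 1.79 ± 0.06 (SE), adjusted p = 1.67e-18) and 2.25-fold (log2 1.17 ± 0.08 (SE), adjusted p = 1.43e-10). The store protein and its channel thus did not follow each other over the gates.

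The uptake genes are the pump and its inhibitors. *Atp2a2* was at 896 and 851 CPM (controls) and 833 and 635 CPM (*Ets1* eKO) in the compact gate and at 813, 812, 791 and 620 CPM in the trabecular gate, with no difference past the threshold (log2 0.01 ± 0.05 (SE), adjusted p = 0.865). It was at 1084, 1037, 1554 and 1221 CPM in the *Tbx3*/*Rspo3* gate, 1.31-fold higher than in the compact gate (log2 0.39 ± 0.09 (SE), adjusted p = 0.00126), a call that was lost when the marker cutoffs of the gates were halved (adjusted p = 0.0649). Its inhibitor *Pln* was at 1353, 1127, 1122 and 1246 CPM in the compact, 1750, 1566, 1545 and 1741 CPM in the trabecular and 808, 1191, 598 and 974 CPM in the *Tbx3*/*Rspo3* gate. *Pln* was therefore 1.46-fold higher in the trabecular gate (log2 0.54 ± 0.05 (SE), adjusted p = 8.15e-10) and 1.61-fold lower in the *Tbx3*/*Rspo3* gate (log2 -0.68 ± 0.11 (SE), adjusted p = 2.81e-05), although control replicate 2 lay in the compact range there. The other inhibitor, *Sln*, was at 344, 263, 563 and 205 CPM in the *Tbx3*/*Rspo3* gate and at only 7.98, 9.14, 1.97 and 5.69 CPM in the compact gate. That difference was 47.7-fold (log2 5.58 ± 0.24 (SE), adjusted p = 8.41e-14). In the trabecular gate *Sln* ranged from 0.197 CPM (1 UMI) in control replicate 1 to 18.9 CPM in control replicate 2, and in this gate it was not separable from the compact gate (log2 0.81 ± 0.38 (SE), adjusted p = 0.0909). Without control replicate 1 the trabecular value of *Sln* passed, at 1.61 with an adjusted p of 2.32e-09.
Few cells carried the *Sln* molecules outside the *Tbx3*/*Rspo3* gate. In the compact gate 5, 3, 2 and 3 cells with at least 5 UMIs held 80.0%, 80.0%, 81.2% and 64.1% of all *Sln* UMIs of their library. In the trabecular gate 2 such cells held 100% in control replicate 2 and 2 held 85.3% in *Ets1* eKO replicate 1. There 7 held 97.6% in *Ets1* eKO replicate 2. In the *Tbx3*/*Rspo3* gate 42.0%, 39.4%, 47.8% and 30.4% of cells held a *Sln* UMI. The list of atrial genes was also higher in this gate than in the compact gate, at 15152, 13411, 17686 and 16352 CPM by library. The part of atrial cells in the *Sln* level of the gate was not tested.

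Calcium extrusion rests on the exchanger. *Slc8a1* was at 4913 and 4707 CPM (controls) and 4095 and 3570 CPM (*Ets1* eKO) in the compact gate and at 8180, 9199, 7195 and 5593 CPM in the trabecular gate. Among *Tbx3*/*Rspo3* cells the values were 5600, 6936, 6388 and 6079 CPM. Every trabecular library lay above every compact one, a 1.85-fold difference (log2 0.88 ± 0.05 (SE), adjusted p = 2.75e-14). The *Tbx3*/*Rspo3* gate was 1.26-fold higher than the compact gate (log2 0.33 ± 0.07 (SE), adjusted p = 0.000758), but not when the marker cutoffs were halved (adjusted p = 0.161) or when libraries were scaled within classes of gene span (adjusted p = 0.282).

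The 2 channels of excitability ran in opposite directions. *Hcn4* was at 3.19, 2.93, 2.10 and 2.04 CPM in the compact gate, from 32, 16, 17 and 14 UMIs, and at 11.0, 8.42, 8.30 and 5.42 CPM in the trabecular gate. The *Tbx3*/*Rspo3* gate held 64.1, 53.8, 77.8 and 51.3 CPM, so the 3 gates did not overlap in *Hcn4*. The pacemaker channel was 3.45-fold higher in the trabecular gate (log2 1.79 ± 0.21 (SE), adjusted p = 9.9e-08) and 20.6-fold higher in the *Tbx3*/*Rspo3* gate (log2 4.36 ± 0.19 (SE), adjusted p = 7.16e-14) than in the compact gate. The compact level itself is close to that of endothelial cells, at 1.80, 3.01, 1.52 and 0.986 CPM, and the part of free RNA in it was not tested. *Kcnd2* was at 428 and 568 CPM (controls) and 417 and 489 CPM (*Ets1* eKO) in the compact gate. It was at 115, 170, 102 and 85.3 CPM in the trabecular and at 135, 88.5, 95.2 and 95.4 CPM in the *Tbx3*/*Rspo3* gate. The potassium channel was 3.86-fold lower in the trabecular gate (log2 -1.95 ± 0.08 (SE), adjusted p = 1.55e-16) and 5.30-fold lower in the *Tbx3*/*Rspo3* gate (log2 -2.41 ± 0.11 (SE), adjusted p = 3.35e-13), with no overlap with the compact gate in either case.

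In all, 6 of the 10 genes passed the threshold between trabecular and compact cells, 5 higher and 1 lower, where 43.2% of the 11803 genes tested did (22.1% higher and 21.0% lower). All 10 passed it between *Tbx3*/*Rspo3* and compact cells, 6 higher and 4 lower, where 45.5% of 11522 genes did (22.1% higher and 23.4% lower). These backgrounds are high, so a call between gates is by itself common, and the sizes of *Cacna2d2*, *Sln*, *Hcn4*, *Casq2* and *Kcnd2* carry more than the count.

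**Figure D2:**
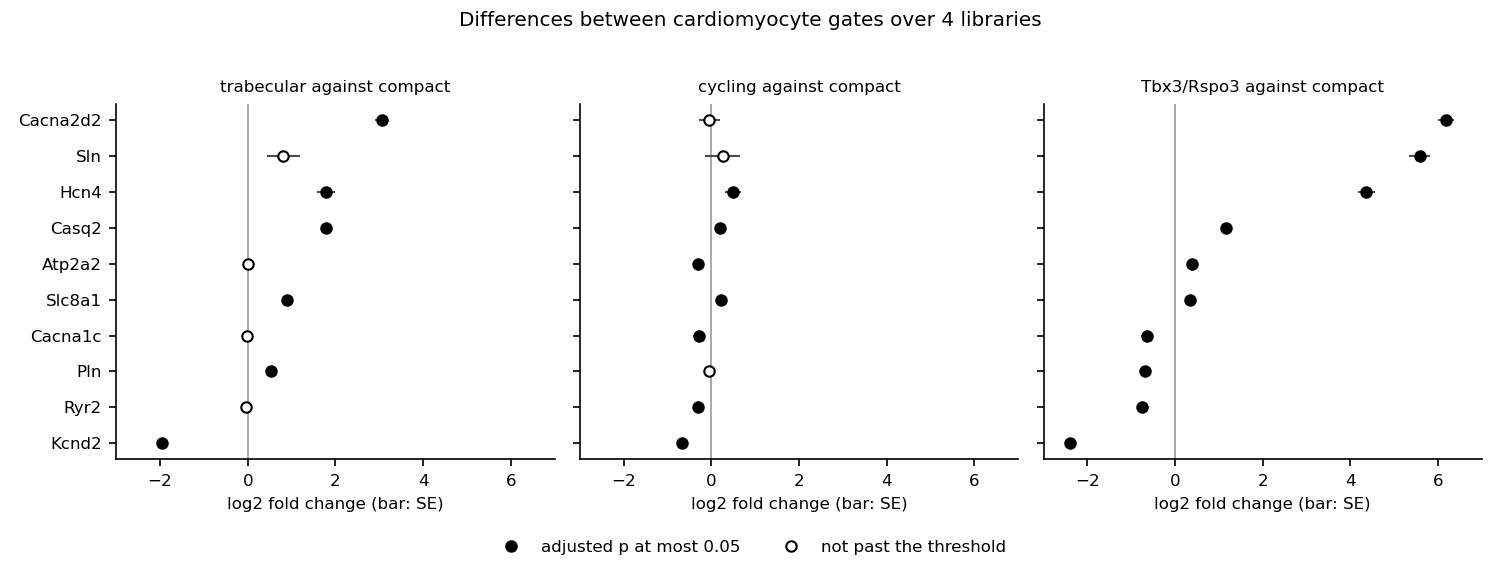
Log2 fold change of each gene in the trabecular, cycling and *Tbx3*/*Rspo3* gates against the compact gate, fitted over 4 libraries with the library as a block. Bars are standard errors and filled points have an adjusted p of at most 0.05. The range runs from -2.41 for *Kcnd2* to 6.19 for *Cacna2d2*, both in the *Tbx3*/*Rspo3* gate.

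Cycling cells differed from compact cells by small amounts, and 7 of the 10 genes passed the threshold where 51.0% of 13016 genes did (26.4% higher and 24.6% lower). The cycling gate was drawn without regard to the compact and trabecular markers. It held 855 to 1777 CPM of *Nppa* and *Bmp10*, against 45.2 to 118 in the compact gate. *Hey2* and *Tnnt1* summed to 1210 to 1641 CPM, against 3629 to 4400 in the compact gate. The part of this mix of zones in the differences was not tested. *Ryr2* (-0.30), *Cacna1c* (-0.29), *Atp2a2* (-0.32) and *Kcnd2* (-0.68) were lower on the log2 scale, and *Slc8a1* (0.23), *Casq2* (0.19) and *Hcn4* (0.49) were higher. *Kcnd2* had the largest of these differences, at 314, 343, 255 and 247 CPM in the cycling gate (log2 -0.68 ± 0.05 (SE), adjusted p = 3.71e-10). The *Hcn4* call was weak (log2 0.49 ± 0.18 (SE), adjusted p = 0.0288) and was lost with DESeq2 (adjusted p = 0.249). *Pln* (log2 -0.05 ± 0.02 (SE), adjusted p = 0.0525), *Cacna2d2* (log2 -0.05 ± 0.24 (SE), adjusted p = 0.884) and *Sln* (log2 0.26 ± 0.40 (SE), adjusted p = 0.622) did not pass.

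Levels of different genes are set side by side per kilobase of merged exons, as a description, since UMIs of a 3' library need not grow with transcript length and other scales give other orders. Per kilobase of exon, *Pln* led the compact gate with 439 CPM, followed by *Slc8a1* with 230 and *Atp2a2* with 132. *Cacna1c* (95.6) and *Kcnd2* (92.3) came next and did not differ beyond the spread of the libraries, nor did *Ryr2* (43.6) and *Casq2* (40.5). *Sln* (4.70), *Cacna2d2* (0.688) and *Hcn4* (0.419) closed the order. In the *Tbx3*/*Rspo3* gate *Slc8a1* (332), *Pln* (324) and *Sln* (261) led and did not differ beyond their spread, *Cacna2d2* reached 59.1 CPM per kilobase, and *Hcn4* was again last with 10.1. There *Sln* and *Atp2a2* (201) did not differ beyond the spread, with *Sln* the lower in *Ets1* eKO replicate 2, whereas in the compact gate *Sln* was far below *Atp2a2*. Per 10 kb of annotated span the order in the *Tbx3*/*Rspo3* gate was *Pln* (1073 CPM), *Sln* (782), then *Atp2a2*, and *Slc8a1* (171), and without any scaling *Atp2a2* was at a mean of 1224 ± 234 and *Sln* at 344 ± 157 CPM (SD, n = 4).

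Outside the myocardium most of the 10 genes were below their level in the gates, with *Kcnd2* and *Hcn4* in epicardial cells as exceptions. *Slc8a1* was at a mean of 867 ± 143 CPM in immune, 509 ± 90.7 in fibroblast, 363 ± 38.0 in epicardial and 99.8 ± 4.63 CPM in endothelial cells (SD, n = 4). *Kcnd2* was at 148 ± 18.2 CPM and *Cacna1c* at 214 ± 56.6 CPM in epicardial cells, and the former lies above the *Kcnd2* means of the trabecular (118) and *Tbx3*/*Rspo3* gates (104). *Atp2a2*, the pump of many tissues, lay at 104 to 142 CPM in all 4 types. Means of *Ryr2* (11.5 to 26.4 CPM), *Pln* (18.3 to 29.7), *Casq2* (1.82 to 2.66), *Cacna2d2* (1.01 to 2.14), *Sln* (0.467 to 1.51) and *Hcn4* (0.485 to 5.87, the highest in epicardial cells and above the 2.56 of the compact gate) were lower still, and the part of free RNA in the droplets in them was not tested.

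The same gates were compared for other genes of the pathway. Of 46 other calcium handling genes, 38 were tested between trabecular and compact cells, and 18 were higher and 4 lower (22.1% and 21.0% of all genes were), with a median log2 difference of 0.19 against 0.0012 over all genes. Those that differed most were the second calsequestrin gene *Casq1* (1.68), the exchanger *Slc8a2* (1.64), the inositol trisphosphate receptor *Itpr2* (1.44), the plasma membrane pump *Atp2b4* (1.38) and the store sensor *Stim1* (-1.27). Of 26 other channels and pumps, 20 were tested, and 11 were higher and 5 lower, with a median of 0.53. The potassium channels *Kcnj3* (2.48), *Kcnj5* (2.10) and *Kcnk3* (1.81) and, in the other direction, *Kcnj8* (-2.15) were among those that differed most. In the *Tbx3*/*Rspo3* gate 10 of 37 calcium genes were higher and 12 lower (22.1% and 23.4% of all genes), near the background, with a median of 0.043 against 0.0085 over all genes. The T-type and L-type pore genes *Cacna1g* (4.26) and *Cacna1d* (3.74), *Atp2b4* (2.72), *Casq1* (2.40) and the phosphodiesterase *Pde3a* (1.89) differed most. Of 20 channels 11 were higher and 4 lower, with a median of 0.65, and *Kcna5* (5.92), *Kcnj5* (3.44), *Kcnj3* (3.08) and, lower, *Abcc9* (-2.63) were among those that differed most. In cycling cells 14 of 39 calcium genes were higher and 12 lower (26.4% and 24.6% of all genes), *Casq1* (1.68) and *Calm2* (1.01) the most, and 3 of 21 channels were higher and 6 lower, with *Kcne1* (-0.98) the most.

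Over the 16 sums of 4 gates in 4 libraries, the genes whose level on the log2(CPM + 1) scale was most like a member were listed as a description, since the sums share libraries and gates. *Cacna2d2* ran with *Cpne5* (r = 0.996), *Pirt* (0.984) and *Lmntd1* (0.984), and *Hcn4* with *Gnao1* (0.990), *Slc24a2* (0.985) and *Rgs6* (0.984). *Sln* ran with *Nr2f1* (0.938), *Cav1* (0.937) and *Nr2f2* (0.930), *Casq2* with *Adamts19* (0.976), and *Kcnd2* with *Pde7b* (0.957). Of these, *Nr2f1* and *Nr2f2* belong to the list of atrial genes. For the long genes the closest were *Herc3* for *Ryr2* (0.898), *Mapre2* for *Cacna1c* (0.958) and *Kif1c* for *Slc8a1* (0.970), and for the short and middle ones *Narf* for *Atp2a2* (0.957) and *Efnb3* for *Pln* (0.938).

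Loss of endothelial *Ets1* was then asked about in each gate, with 2 libraries against 2. None of the 10 genes passed the threshold in any of the 4 gates with edgeR, and none with DESeq2. An unadjusted p under 0.05 was given to 3, 3, 1 and 3 of them in the compact, trabecular, cycling and *Tbx3*/*Rspo3* gates, where 9.89%, 13.8%, 11.6% and 9.25% of all genes had one. At the adjusted threshold, over all genes only 3 of 12503 (0.024%), 7 of 11366 (0.0616%), 1 of 14123 (0.00708%) and 2 of 9315 (0.0215%) passed, so the tests made few calls anywhere. Nothing says that the pooled embryos came from separate litters, so these p-values measure the spread between libraries.
In the compact gate, *Cacna1c* (log2 -0.49 ± 0.17 (SE), adjusted p = 0.479) and *Ryr2* (log2 -0.37 ± 0.17 (SE), adjusted p = 0.506) were at lower values in both *Ets1* eKO libraries than in both controls, and so were *Slc8a1*, *Cacna2d2*, *Atp2a2*, *Sln* and *Hcn4*. These 7 of 10 in CPM compare with 32.4% of all genes. After TMM scaling, the scale of the log2 values, *Atp2a2* overlapped (881 and 814 against 860 and 661) and 6 of 10 were lower in both, where 22.8% of all genes were. *Pln* (0.03), *Casq2* (-0.06) and *Kcnd2* (-0.04) overlapped between the groups.
The trabecular gate gave the same count with a partly different set. *Cacna1c* (log2 -0.61 ± 0.21 (SE), adjusted p = 0.31), *Ryr2* (log2 -0.53 ± 0.20 (SE), adjusted p = 0.319), *Kcnd2* (log2 -0.49 ± 0.20 (SE), adjusted p = 0.33), *Slc8a1* (-0.34), *Hcn4* (-0.47), *Casq2* (-0.15) and *Atp2a2* (-0.10) were lower in both *Ets1* eKO libraries in CPM, 7 of 10 against 32.9% of all genes. After TMM scaling *Atp2a2* and *Hcn4* overlapped, and 5 of 10 were lower in both against 25.0% of all genes. *Cacna2d2* (0.21) and *Pln* (0.10) overlapped, and *Sln* (log2 0.95 ± 0.74 (SE), adjusted p = 0.538) turned on the single UMI of control replicate 1. The 56 *Sln* UMIs of control replicate 2 in this gate lay in 2 cells. The 7 genes that passed in this gate included the heat shock genes Hspa1a (-3.77) and Hspa1b (-3.14), the immediate early gene Nr4a1 (-1.49) and the embryonic globin Hbb-y (1.9), and the summed erythroid markers were at 126, 60.0, 138 and 182 CPM. The part of what these genes mark in the trabecular values was not tested.
In the cycling gate 6 of 10 were lower without overlap in CPM (37.6% of all genes) and 5, without *Hcn4*, after TMM scaling (25.0% of all genes), namely *Cacna1c* (log2 -0.48 ± 0.17 (SE), adjusted p = 0.431), *Ryr2* (-0.35), *Slc8a1* (-0.22), *Kcnd2* (-0.27), *Hcn4* (-0.22) and *Casq2* (-0.16). Over all alternatives the *Kcnd2* value in this gate ran from -0.39 to -0.0092.
The median over the 10 genes was -0.30, -0.24 and -0.19 in these 3 gates, where the median over all genes was 0.0085, 0.0144 and 0.0074. Marker lists moved with some of these values. Smooth muscle markers were at 2064, 2039, 2453 and 2631 CPM in the compact gate. The trabecular gate held more of its own *Nppa* and *Bmp10* in *Ets1* eKO (14086, 15303, 18068 and 20131 CPM). Atrial genes in the trabecular gate were at 7137, 7385, 7509 and 11070 CPM, with *Ets1* eKO replicate 2 standing apart. In the cycling gate *Ets1* eKO replicate 2 stood apart too, with 1777 CPM of the trabecular pair against 855 to 1011 in the others. Its atrial genes there were at 6230 CPM against 4381 to 4884. The trabecular pair in the compact gate was at 53.1, 45.2, 51.3 and 118 CPM, again highest in that library. The part of these lists in the eKO values was not tested. The same 4 libraries serve all gates, so the gates are not independent of each other.

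Leaving out 1 library brought 3 of the 4 longest genes past the threshold, and not *Kcnd2*, whose lowest adjusted p over all settings was 0.0609 in the trabecular gate. Without *Ets1* eKO replicate 1, which leaves the shallow replicate 2 as the lone eKO library and assumes that it varies like the controls, *Ryr2* passed in the compact (-0.55, adjusted p = 0.0168), trabecular (-0.66, 0.00953) and cycling gates (-0.46, 0.0352). *Cacna1c* passed in the same 3 gates (-0.63, -0.75 and -0.59, adjusted p = 0.00446, 0.00388 and 0.00452), and *Slc8a1* in the trabecular gate (-0.46, 0.0368). *Sln* passed in the compact gate without *Ets1* eKO replicate 2 (-2.00, 2.19e-05) and in the trabecular (6.05, 4.63e-16) and cycling gates (3.98, 2.75e-24) without control replicate 2, where the lone control held 1 and 14 UMIs. *Sln* also passed in the cycling gate without *Ets1* eKO replicate 1 (0.58, 0.0372). When all genes were tested without a filter it passed in the compact (-1.10, 0.0103) and trabecular gates (0.96, 0.0475). *Cacna2d2* passed in the cycling gate without control replicate 2 (1.40, 0.00123) and when *Ets1* eKO replicate 1 was left out (0.84, 0.0107). With that library gone, 959, 1493 and 2145 genes passed in the compact, trabecular and cycling gates.

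The 4 genes of more than 300 kb were set against all genes of their size, since the differences between eKO and control moved with gene span throughout the data. In the compact gate the median log2 difference ran from 0.16 for 2965 genes under 10 kb to -0.24 for 407 genes of 300 kb and over, of which 86.5% lay below 0. The corresponding medians were 0.26 and -0.35 in the trabecular, 0.18 and -0.25 in the cycling and 0.17 and -0.22 in the *Tbx3*/*Rspo3* gate. Across genes, Spearman's rho between span and the difference was -0.401, -0.483, -0.418 and -0.373 in the 4 gates, and genes are not independent replicates. In cells outside the myocardium the same rho was -0.280 (endothelial), -0.258 (fibroblast), -0.260 (epicardial) and -0.253 (immune). Replicates of 1 group also differed with span: rho was 0.189 between control replicates 2 and 1 and -0.225 between *Ets1* eKO replicates 2 and 1 in the compact gate. The same 2 values were 0.184 and -0.334 in the trabecular and 0.165 and -0.2715 in the cycling gate. In the *Tbx3*/*Rspo3* gate they were smaller, at 0.0487 and -0.0737.

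**Figure D3:**
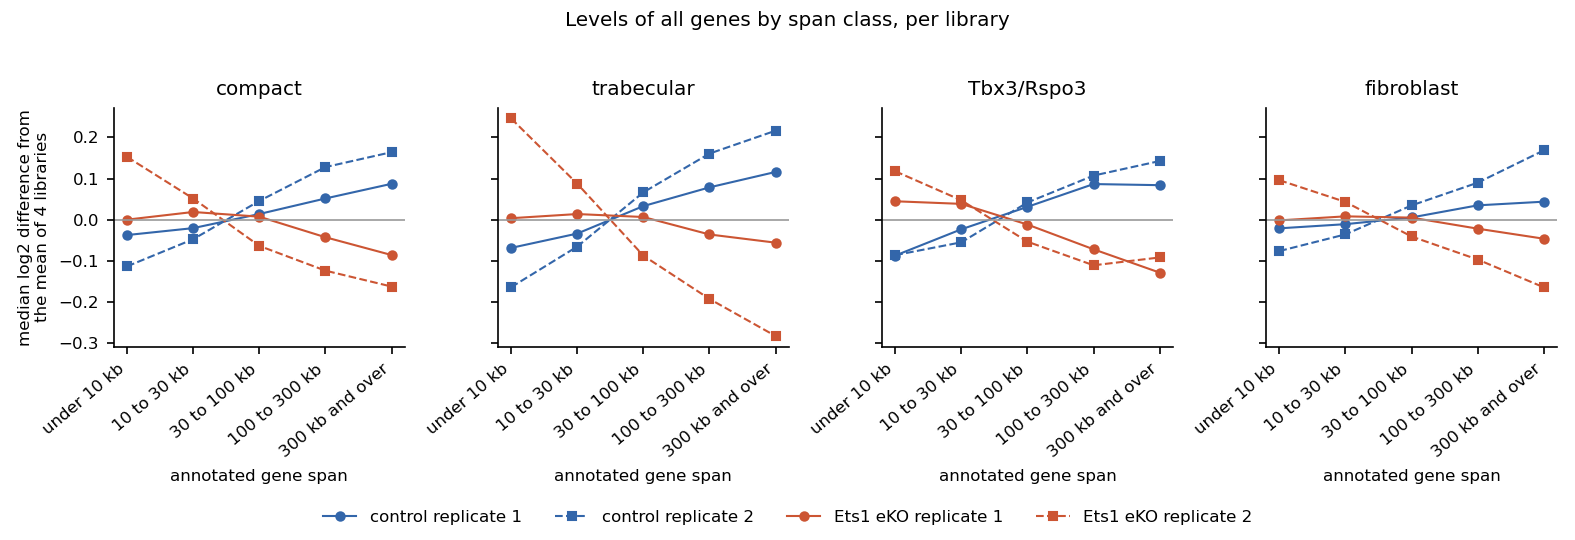
Median log2 difference of all genes from the mean of the 4 libraries, by class of annotated gene span, with 1 line per library in the compact, trabecular, *Tbx3*/*Rspo3* and fibroblast gates. In the compact gate the share of UMIs on genes of 300 kb and over was 5.84%, 6.22%, 4.93% and 4.53% (controls first).

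Against that background the long members were compared with their class. In the compact gate *Slc8a1* (-0.23) lay at the class median of -0.24, *Ryr2* (-0.37) and *Cacna1c* (-0.49) below it and *Kcnd2* (-0.04) above it. In the *Tbx3*/*Rspo3* gate *Ryr2* (0.14), *Slc8a1* (0.03) and *Kcnd2* (-0.17) were above the class median of -0.22 and *Cacna1c* (-0.65) below it. When libraries were scaled within classes of span, the compact values became -0.13 for *Ryr2*, 0.016 for *Slc8a1*, -0.24 for *Cacna1c* and 0.23 for *Kcnd2*. The trabecular values became -0.19, -0.0031, -0.27 and -0.14 for the same genes. Of the shorter members, *Pln* (0.027 in the compact gate) lay below the median of 0.16 of its class, and *Casq2* (-0.055) lay at its own of -0.052. *Cacna1c* was below its class in all 4 gates, by 0.22 to 0.43 after this scaling, without passing the threshold in any. The share of mitochondrial UMIs, another property of whole libraries, was 5.63%, 5.64%, 4.35% and 4.53% in the compact gate. The part of these library properties in the values of the long genes was not tested beyond the scaling.

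**Figure D4:**
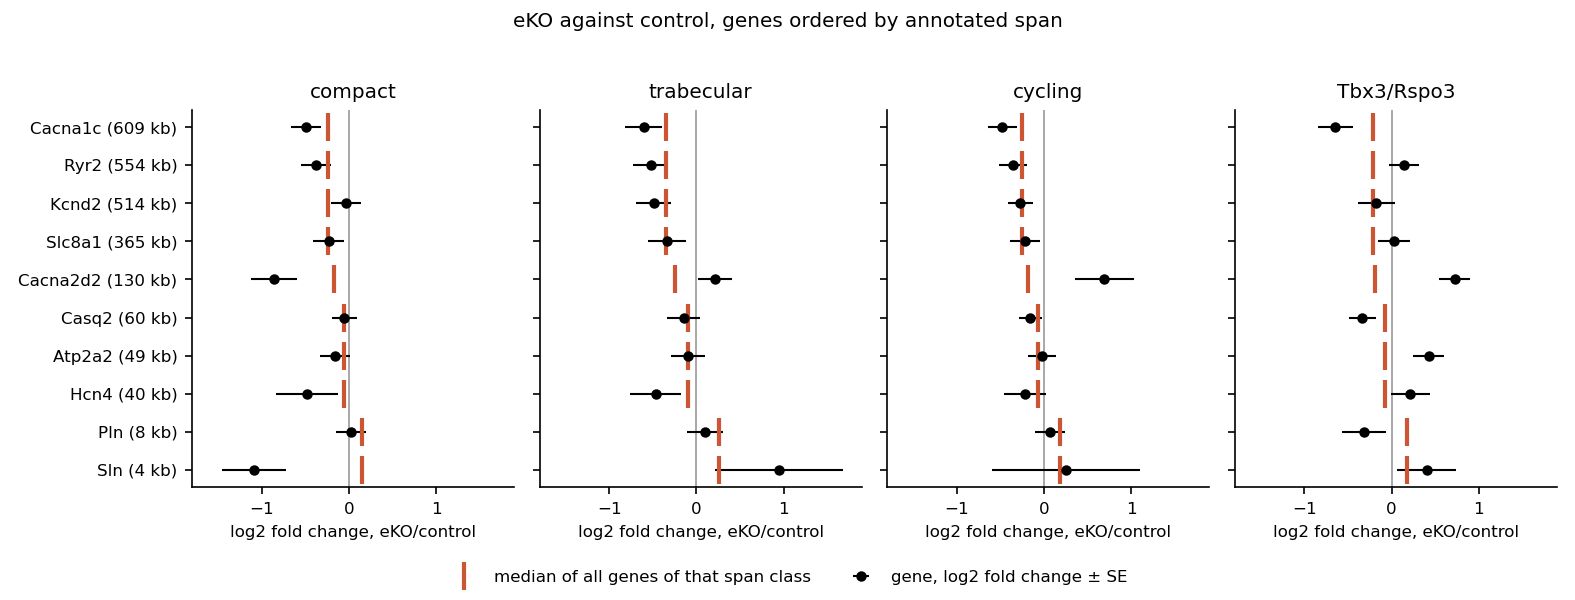
Log2 fold change of *Ets1* eKO against control for each gene, ordered by annotated span, in each gate. Points are genes with their standard errors (2 libraries against 2), and upright marks are the median of all genes of that span class. *Slc8a1* lies on the mark in the compact gate, at -0.23 against -0.24, and *Cacna1c* lies left of it in all 4 gates.

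The *Tbx3*/*Rspo3* gate held fewer values that were lower in eKO. *Cacna1c* (log2 -0.65 ± 0.20 (SE), adjusted p = 0.455) and *Casq2* (log2 -0.33 ± 0.16 (SE), adjusted p = 0.557) were lower in both *Ets1* eKO libraries, 2 of 10 against 24.2% of all genes in CPM and 21.3% after TMM scaling. *Cacna2d2* (log2 0.72 ± 0.18 (SE), adjusted p = 0.383) and *Atp2a2* (log2 0.43 ± 0.18 (SE), adjusted p = 0.534) were higher in both, 2 of 10 against 17.1% in CPM and 20.0% after TMM scaling. *Ryr2* (0.14), *Slc8a1* (0.03), *Sln* (0.40), *Hcn4* (0.22), *Pln* (-0.32) and *Kcnd2* (-0.17) overlapped, and the median over the 10 genes was 0.083. None of these passed the threshold in this gate of 115 to 160 cells per library, but with no filter on low counts *Cacna1c* (-0.68, edgeR adjusted p = 0.0266) and *Cacna2d2* (0.69, 0.0279) did.
The difference between gates was tested for itself. *Cacna2d2* was the 1 member whose eKO effect differed between the *Tbx3*/*Rspo3* and compact gates (log2 1.59 ± 0.25 (SE), adjusted p = 0.00379), where 10 of 12365 genes (0.0809%) passed. DESeq2 also called it (1.59, adjusted p = 0.00469). This comparison was added after the opposite directions had been seen. Without *Ets1* eKO replicate 1 it no longer passed (1.32, adjusted p = 0.0615), and the same held with doubled marker cutoffs (1.5, 0.192), and with halved cutoffs the value was 0.90 (0.0487). For *Atp2a2* the difference was 0.58 with an adjusted p of 0.129. Between the trabecular and compact gates none of the 10 differed in eKO effect, with 3 at an unadjusted p under 0.05 (7.26% of all genes) and none called by DESeq2, where 27 of 12377 genes (0.218%) passed the adjusted threshold. *Cacna2d2* came closest there (log2 1.08 ± 0.28 (SE), adjusted p = 0.105).

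The compact side of the *Cacna2d2* difference rests on few cells. Its 65, 44, 30 and 25 UMIs in the compact gate lay in 3.72%, 4.78%, 1.82% and 1.19% of cells, and 5, 3, 3 and 2 cells with at least 5 UMIs held 44.6%, 40.9%, 70.0% and 52.0% of them. After thinning every cell to 3000 UMIs, 1.63%, 2.73%, 0.606% and 0.867% of compact cells had a UMI. The endothelial share, measured the same way, was 0.453%, 0.360%, 1.19% and 0.668%, with a median depth of 5034 to 8182 UMIs against 7222 to 12191 in compact cells. Endothelial cells are the target of the deletion, and their share was higher in both *Ets1* eKO libraries than in both controls. They are thus no neutral floor. The compact shares in *Ets1* eKO lay within the range of the endothelial shares, and no background level is read from this. The part of these few cells in the difference was not tested.
In the *Tbx3*/*Rspo3* gate the thinned share of cells with *Cacna2d2* was 48.7% (exact 95% interval 39.5 to 58.1%) and 50.6% (42.6 to 58.6%) for the controls, and 73.0% (64.0 to 80.9%) and 63.5% (54.0 to 72.3%) for the eKO libraries. The means differed by 18.6 percentage points, and an exact two-sided permutation test over the 4 libraries gave p = 0.33, the smallest it can give. Without thinning the shares were 73.1%, 59.4%, 87.0% and 76.5%. These intervals cover counting error only. *Hcn4* was found in 16.8%, 15.0%, 16.5% and 12.2% of thinned cells of this gate and *Sln* in 31.9%, 25.6%, 42.6% and 27.0%, with overlap between the groups in both. With all UMIs the *Hcn4* shares were 38.7%, 33.8%, 32.2% and 20.9%, without overlap and 9.68 percentage points lower in *Ets1* eKO, whose replicate 2 is the shallowest library. The endothelial thinned shares were 0.583%, 0.811%, 0.559% and 0.178% for *Hcn4* and 0.129%, 0.270%, 0.209% and 0.223% for *Sln*. *Kcnd2* was found in 47.8%, 56.3%, 48.6% and 54.6% of thinned compact cells and in 21.0%, 25.9%, 24.0% and 15.5% of trabecular cells, against 3.51% to 6.01% of endothelial cells.

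Markers of several cell types moved with the groups in the *Tbx3*/*Rspo3* gate. The 2 genes that passed between eKO and control there were *Nppa* (log2 2.41, edgeR adjusted p = 0.00473), an atrial and trabecular gene, and *Vsnl1* (2.30, 0.00272), a gene of sinoatrial cells. The trabecular pair *Nppa* and *Bmp10* summed to 80.1, 65.0, 283 and 467 CPM, the atrial list was higher in both *Ets1* eKO libraries (values above), and the ventricular list was lower in both, at 8122, 9675, 4612 and 7984 CPM. The part of these lists in the values of *Cacna2d2*, *Atp2a2* and *Cacna1c* was not tested. The sinoatrial list of *Shox2*, *Isl1*, *Tbx18* and *Vsnl1* summed to 36.1, 56.5, 201 and 165 CPM, with *Shox2* at 12.8, 19.7, 97.0 and 47.0 CPM and *Vsnl1* at 20.0, 24.5, 104 and 115 CPM. *Isl1* was at 2.40, 11.2, 0 and 1.42 CPM, so 1 defining marker did not rise with the others, and *Tbx18* was at 0 to 1.42 CPM. Cells with a UMI of *Shox2*, *Isl1* or *Vsnl1* numbered 19 of 119, 37 of 160, 46 of 115 and 32 of 115. In these cells *Hcn4* was at 76.5, 59.8, 129 and 86.7 CPM, and in the remaining cells at 61.6, 51.6, 41.9 and 38.6 CPM. *Sln* was at 402, 417, 896 and 607 CPM with such a UMI and at 332, 207, 331 and 61.8 CPM without. *Atp2a2* was at 1210, 1169, 1937 and 1772 CPM with and at 1058, 989, 1288 and 1024 CPM without.
Since *Vsnl1* itself differed between the groups, and a deeper cell is more likely to show such a UMI, the cells with and without one are not matched between eKO and control, and their values are a description. Without those cells *Cacna2d2* was at 345, 356, 581 and 464 CPM (log2 0.63) and *Cacna1c* at a log2 difference of -0.50. The difference of the *Cacna2d2* effects between the gates was then 1.49 with an adjusted p of 0.00348, against 1.59 with all cells. *Atp2a2* (0.23) then overlapped between the groups, and *Hcn4* was at -0.42, *Sln* at -0.35 and *Ryr2* at -0.0021. The part of sinoatrial cells in the values of the gate was not tested.

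**Figure D5:**
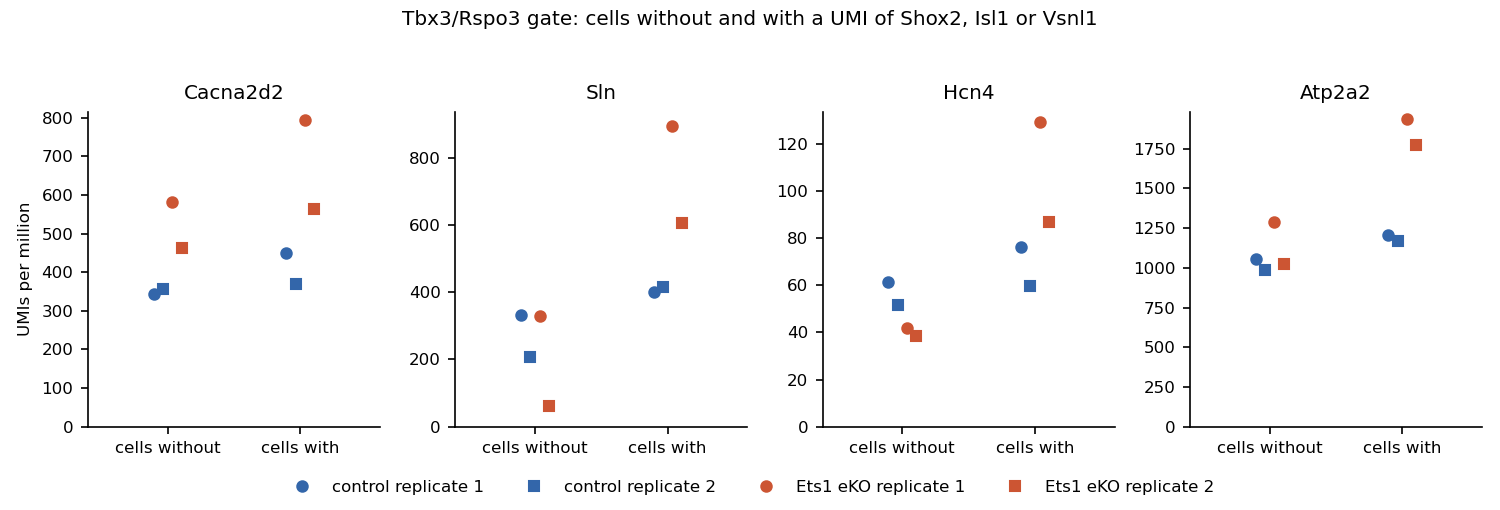
Level (UMIs per 1000000, axes from 0) of *Cacna2d2*, *Sln*, *Hcn4* and *Atp2a2* in *Tbx3*/*Rspo3* gate cells without and with a UMI of *Shox2*, *Isl1* or *Vsnl1*, with 1 point per library. *Hcn4* in the cells without such a UMI was at 61.6 and 51.6 for control and 41.9 and 38.6 for eKO libraries, and in the cells with one it was highest in *Ets1* eKO, at 129 and 86.7.

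Across the other genes of the pathway the eKO comparison gave no call either. None of 39 other calcium handling genes and none of 20 other channels passed in the compact gate, with 11 and 5 at an unadjusted p under 0.05 (9.89% of all genes) and none called by DESeq2. In the trabecular gate these were 0 of 38 and 0 of 20 (8 and 6 unadjusted, 13.8% of all genes), in the cycling gate 0 of 43 and 0 of 22 (7 and 5, 11.6%), and in the *Tbx3*/*Rspo3* gate 0 of 36 and 0 of 16 (5 and 1, 9.25%), again with none by DESeq2. The median difference of the calcium genes was -0.13, -0.068, -0.11 and -0.060 and that of the channels -0.077, -0.29, -0.085 and -0.082 in the 4 gates.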

How the data were processed

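The authors deposited, for each of the 4 libraries, a matrix of raw UMI counts per gene and called cell (Chromium 3' v3.1). Per the submitters' notes and the study's methods, reads were aligned to mm10 with Cell Ranger 7.1.0 and analysed in Seurat 4.3.0. This version of Cell Ranger counts intronic reads by default, but whether they were counted is not given in the sources used here. The whole counts do not show whether the ambient RNA and doublet removal the study describes came before deposit. The labels give all 4 libraries the same batch number, 1. The 10 genes, the lists and the tests were chosen with earlier results of these data known.

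Of the study's limits on cells, 4 were applied (between 200 and 7000 genes, mitochondrial UMIs up to 20%, ribosomal up to 35% and hemoglobin up to 2%), which left 7235 to 13851 cells per library. Its limits on exon ratio and on total, exonic and intronic reads were not applied, since the matrices hold UMIs and do not split them. For doublets, 2 artificial pairs per cell were mixed in, cells were scored by the share of pairs among 90 neighbours in 30 components, and the highest scores were removed at 0.8% per 1000 cells (419 to 1535 cells). Gates took cells of at least 3000 UMIs. Cardiomyocytes had at least 10000 CPM of their markers and under 1000 CPM of endothelial, fibroblast and immune markers. Cycling cells had at least 800 CPM of cell cycle genes and, among the rest, cells of the *Tbx3*/*Rspo3* gate at least 300 CPM and 2 genes of the atrioventricular canal list. Compact cells had at least 1000 CPM of *Hey2* and *Tnnt1* with under 1000 CPM of *Nppa* and *Bmp10*, and trabecular cells at least 3000 CPM of the latter with under 1000 CPM of the former. Cells with neither pattern (921 to 1654 per library) were left out. Cutoffs were set on the markers alone.

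UMIs were summed per library and gate and tested with edgeR 4.0.16 in R 4.3.3 (TMM, filterByExpr, quasi-likelihood test, adjusted p at most 0.05 over all genes tested), condition alone within a gate and with the library as a block between gates or for the gate by condition term. The tests were tried on simulated counts with 200 changed genes. At a log2 change of 0.5 the eKO test recovered 11 of them in the compact and 0 in the *Tbx3*/*Rspo3* gate. At a log2 change of 1 it recovered 146 and 107. Changes near 0.5 would thus mostly be missed by the eKO tests of these 2 gates. Levels are CPM of the gate's UMIs. Named genes are all 10 members, at most the 5 largest called differences of each list of 46 and 26 pathway genes, and the 3 genes of at least 10 CPM most correlated with a member, of which the closest are named for some. A few values of the pathway lists are not reported here. Spans came from GENCODE vM21 (GRCm38) for 32158 of 32285 gene IDs. Shares of cells used cells thinned to 3000 UMIs with seed 0 and exact 95% intervals. The remaining work ran in Python 3.11.15 (scikit-learn 1.9.0, scipy 1.17.1, pandas 2.3.3, matplotlib 3.10.9, numpy 2.4.6).

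Alternatives tried were each library left out, the replicate number as a block, DESeq2 1.42.0, scaling by total counts, all genes without a filter, no doublet removal, gates drawn on thinned cells, marker cutoffs at 0.5 and 2 times the main ones, exon length in place of span and all UMIs for shares. Scaling within span classes, the crossed pairing, the *Tbx3*/*Rspo3* term and the removal of cells with sinoatrial markers were added after the data were seen. The columns used were those of the 4 samples.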

Additional observations from a re-analysis of the deposited data

Results flagged for a closer look

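*Cacna2d2* stood out because the eKO effects of 2 gates went in opposite directions and their difference passed the threshold. The test of that difference was added after the opposite directions had been seen, and its compact side rests on 25 to 65 UMIs per library. The log2 difference of eKO against control was -0.86 in the compact gate and 0.72 in the *Tbx3*/*Rspo3* gate, with no overlap of the groups in either. Over all alternatives the compact value ran from -0.98 to -0.12 and the *Tbx3*/*Rspo3* value from 0.49 to 0.92. The difference between the gates was 1.59 (edgeR adjusted p = 0.00379). Over its alternatives this adjusted p ran from 5.4e-05 with gates drawn on thinned cells to 0.192 with doubled marker cutoffs.
*Atp2a2* was noted because in CPM both *Ets1* eKO libraries lay below both controls in the compact gate (-0.16) and above them in the *Tbx3*/*Rspo3* gate (0.43). After TMM scaling, the scale of these log2 values, the groups overlapped in the compact gate and not in the other, and the test of that difference did not pass (0.58, edgeR adjusted p = 0.129). It passed with total count scaling (adjusted p = 0.0219), with no filter on low counts (0.0389), without control replicate 1 (0.0311) and with halved cutoffs (0.00875). The trabecular gate showed the same opposition for *Atp2a2* in CPM, at -0.10 against 0.43 in the *Tbx3*/*Rspo3* gate, but the groups overlapped there after TMM scaling, and this difference was not tested.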

How the results depend on the processing

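Of 1160 values of the 10 genes under the alternatives, 1016 kept their direction and their side of the threshold, 12 lost a call, 54 gained one and 78 turned. The calls of *Cacna2d2*, *Hcn4*, *Casq2* and *Kcnd2* between *Tbx3*/*Rspo3* and compact cells and between trabecular and compact cells kept direction and call under every alternative run. Calls lost were *Hcn4* between cycling and compact cells (7 settings), *Slc8a1* (halved cutoffs and span scaling) and *Atp2a2* (halved cutoffs) between *Tbx3*/*Rspo3* and compact cells, and the difference of *Cacna2d2* between gates (without *Ets1* eKO replicate 1 and with doubled cutoffs). Low counts limit the precision of *Sln* (down to 1 UMI per library in the trabecular, 14 in the cycling and 16 in the compact gate) and of *Hcn4* and *Cacna2d2* in the compact gate (14 to 65 UMIs). Total count scaling shifted the median of all genes by -0.094, -0.11, -0.12 and -0.035 in the 4 eKO comparisons and by -0.094, -0.036 and 0.21 in the trabecular, cycling and *Tbx3*/*Rspo3* comparisons with compact cells. With it *Ryr2* (-0.14) and *Cacna1c* (-0.11) passed between trabecular and compact cells. The difference of the *Sln* effects between *Tbx3*/*Rspo3* and compact cells (1.43, edgeR adjusted p = 0.536) passed in 6 settings, at adjusted p from 1.2e-09 (without *Ets1* eKO replicate 2) to 0.0356 (without control replicate 2), and was -0.094 without *Ets1* eKO replicate 1. The causes of the changes below were not tested.

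The number of genes that passed in the eKO comparisons (3, 7, 1 and 2 in the compact, trabecular, cycling and *Tbx3*/*Rspo3* gates) was 6, 12, 3 and 8 with DESeq2, 14, 67, 4 and 5 with total count scaling and 119, 127, 89 and 111 with no filter on low counts. It was 1, 21, 0 and 1 with doublets kept. Gates drawn on thinned cells gave 12 in the compact, 18 in the trabecular and 1 in the *Tbx3*/*Rspo3* gate. Scaling within span classes gave 0 and 12 in the compact and trabecular gates, doubled cutoffs 20 in the trabecular and halved cutoffs 11 in the *Tbx3*/*Rspo3* gate. For the differences of eKO effects (27 for trabecular and 10 for *Tbx3*/*Rspo3* against compact cells), the trabecular count was 3 with DESeq2, 17 and 43 with doubled and halved cutoffs and 77 with doublets kept. The *Tbx3*/*Rspo3* count was 31 with halved cutoffs and 25 with gates on thinned cells, and with no filter the 2 counts were 56 and 54. Between gates DESeq2 called 3116 genes for trabecular (5096 with edgeR) and 4097 for cycling (6638) against compact cells. Leaving out 1 library gave 28 to 959, 22 to 1493, 37 to 2145 and 2 to 75 genes in the 4 eKO comparisons, and 28 to 148 and 16 to 72 for the differences of effects. The highest counts in the compact, trabecular and cycling gates came without *Ets1* eKO replicate 1, and the 75 came without control replicate 1.
Same-numbered replicates deviated together with correlations of -0.011, -0.11, -0.023 and -0.0017, so the numbers did not pair the libraries. With the replicate number as a block 62, 42, 37 and 24 genes passed, and with crossed pairs 88 in the trabecular gate. Of the 10 genes, the block brought *Sln* past the threshold in the compact gate (-1.17, adjusted p = 0.0149).

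Spearman's rho with span ran from -0.405 to -0.254 (compact), -0.518 to -0.297 (trabecular), -0.423 to -0.274 (cycling) and -0.356 to -0.290 (*Tbx3*/*Rspo3*) when 1 library was left out, and exon length gave -0.306 in the last of these. Differences of thinned shares in percentage points ran from -1.82 to 13.8 (*Sln*) and -3.73 to 0.618 (*Hcn4*) in the *Tbx3*/*Rspo3* gate and from -4.64 to 3.83 in the compact and -7.97 to 0.516 in the trabecular gate (*Kcnd2*). With all UMIs the *Sln* difference turned from 6.00 to -1.57.

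The log2 values that turned direction in some setting are given with their range over the libraries left out. In the eKO comparison of the compact gate these were -0.36 to 0.022 for *Atp2a2*, -0.12 to 0.21 for *Pln*, -0.17 to 0.088 for *Casq2* and -0.18 to 0.16 for *Kcnd2*. The trabecular ranges were -0.037 to 0.47 for *Cacna2d2*, -0.21 to 0.028 for *Atp2a2*, -0.035 to 0.25 for *Pln* and -0.34 to 6.05 for *Sln*. The cycling ranges were -0.14 to 0.10 for *Atp2a2*, -0.051 to 0.21 for *Pln*, -0.85 to 3.98 for *Sln* and -0.50 to 0.013 for *Hcn4*. Those of the *Tbx3*/*Rspo3* gate were -0.13 to 0.21 for *Slc8a1*, -0.72 to 0.0084 for *Pln*, -0.51 to 0.93 for *Sln*, -0.14 to 0.44 for *Hcn4* and -0.46 to 0.13 for *Kcnd2*. Between trabecular and compact cells they were -0.089 to 0.0053 for *Cacna1c* and -0.019 to 0.036 for *Atp2a2*. Between cycling and compact cells they were -0.34 to 0.42 for *Cacna2d2* and -0.062 to 1.09 for *Sln*. For the difference of eKO effects between the trabecular and compact gates they were -0.23 to 0.021 for *Slc8a1*, -0.25 to 0.031 for *Cacna1c* and -0.25 to 0.26 for *Hcn4*. For that between the *Tbx3*/*Rspo3* and compact gates they were -0.49 to 0.15 for *Cacna1c*, -0.82 to 0.084 for *Pln*, -0.094 to 2.90 for *Sln* and -0.60 to 0.34 for *Kcnd2*.
Scaling within span classes gave *Slc8a1* 0.016, *Pln* -0.11, *Casq2* 0.0047 and *Kcnd2* 0.23 (compact eKO), *Pln* -0.13 (trabecular eKO), *Slc8a1* 0.043, *Atp2a2* 0.056 and *Pln* -0.079 (cycling eKO), *Kcnd2* 0.046 (*Tbx3*/*Rspo3* eKO), *Cacna1c* 0.020 (trabecular against compact) and *Pln* -0.016 (trabecular eKO term). Total count scaling gave *Pln* -0.068 (compact eKO), *Pln* -0.014 (trabecular eKO), *Pln* -0.046 (cycling eKO), *Slc8a1* -0.0085 (*Tbx3*/*Rspo3* eKO) and *Atp2a2* -0.081 (trabecular against compact). Doubled marker cutoffs gave *Sln* 0.056 (compact eKO), *Cacna2d2* -0.11 (trabecular eKO), *Slc8a1* -0.0027 and *Kcnd2* 0.29 (*Tbx3*/*Rspo3* eKO), *Cacna1c* 0.0021 (trabecular against compact), *Cacna2d2* 0.30 (cycling against compact) and *Kcnd2* 0.42 (*Tbx3*/*Rspo3* eKO term). Leaving out cells with a UMI of *Shox2*, *Isl1* or *Vsnl1* gave *Ryr2* -0.0021, *Sln* -0.35 and *Hcn4* -0.42 (*Tbx3*/*Rspo3* eKO). The tests with no filter on low counts gave *Slc8a1* -0.0071 (*Tbx3*/*Rspo3* eKO) and *Atp2a2* -0.030 (trabecular against compact). Gates drawn on thinned cells gave *Slc8a1* -0.080 and *Kcnd2* 0.57 (*Tbx3*/*Rspo3* eKO), *Sln* -0.36 (cycling against compact) and *Kcnd2* 0.64 (*Tbx3*/*Rspo3* eKO term). Halved marker cutoffs gave *Kcnd2* 0.11 (*Tbx3*/*Rspo3* eKO), *Atp2a2* -0.023 (trabecular against compact), *Sln* -0.74 (cycling against compact) and *Kcnd2* 0.21 (*Tbx3*/*Rspo3* eKO term). Keeping doublets gave *Cacna2d2* 0.43 (cycling against compact) and *Hcn4* -0.38 (trabecular eKO term).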
